A study of Mus musculus with 3 samples.

Results

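The BCL-2 family survival genes described here are 10 mouse genes, Bcl2a1a, Bcl2a1b, Bcl2a1d, Bcl2, Bcl2l1, Mcl1, Bcl2l11, Bax, Bak1 and Bid. They were chosen by symbol, and all 10 matched 1 gene each among the 55536 annotated genes of the deposited gene tables. The cells were macrophages grown from bone marrow of C57BL/6J mice and exposed to Lipid A, the part of endotoxin that Toll-like receptor 4 binds, at 100 ng/ml for 12 hours. Lipid A was then washed out for 12 hours and given again at 100 ng/ml for 25 minutes. The cytosolic fraction was taken, ribosomal RNA was removed, and the remaining total RNA was sequenced. The 3 libraries, biological replicates 1 to 3 of this single group, come from separate biosamples with the same donor entry. An SD here is the spread of these samples and may be partly technical, and no other treatment was compared.

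Proteins of the BCL-2 family decide whether the outer mitochondrial membrane is breached during apoptosis. The effectors BAX and BAK form the pores, the pro-survival proteins BCL-2, BCL-XL (from Bcl2l1), MCL-1 and A1 (from the Bcl2a1 genes) hold them in check, and BH3-only proteins such as BIM (from Bcl2l11) and BID antagonise the pro-survival proteins or activate the effectors. In macrophages, A1 is known as a target of NF-kB downstream of Toll-like receptors, and MCL-1 as a short-lived protein that has to be made continuously.

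The libraries held 55517261, 21311556 and 45635014 expected counts, so replicate 2 was the shallowest and low genes are least precise there. Levels are given in TPM, a relative transcript abundance that is scaled by gene length and can be compared between genes. Nuclear protein-coding genes made up 29.6% of TPM in replicate 1, 40.4% in replicate 2 and 34.8% in replicate 3. A TPM is therefore a different fraction of the messenger RNA in each library, and for the 10 genes and their sums the level rescaled to nuclear protein-coding genes alone is given where it changes which library is highest or lowest. For other genes TPM show the level, and their order among libraries can change with the scaling. All 8 macrophage markers examined were above 1 TPM throughout, and they summed to 4924 to 7591 TPM. Of 32 markers of neutrophils, B cells, T cells, mast cells or basophils, dendritic, erythroid and stromal cells, 28 were below 1 TPM in every library, and the summed level of the 32 was 12.8 to 21.3 TPM. The neutrophil markers S100a8 (3.89, 4.36 and 3.41 TPM) and S100a9 (5.04, 10.3 and 5.14 TPM) made up most of that sum, while the neutrophil markers Ly6g and Retnlg had no counts. The other markers above 1 TPM in every library were Cd79b of B cells (1.61, 3.89 and 1.40 TPM) and Ccr7 of dendritic cells (1.05, 1.69 and 1.37 TPM). Bulk RNA cannot tell fewer cells of a type from less RNA per cell.

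The A1 genes come first because their sequences decide how far their levels can be separated. Bcl2a1d (chr9:88723285-88731914, minus strand), Bcl2a1a (chr9:88956900-88962419, plus strand) and Bcl2a1b (chr9:89199209-89207827, plus strand) lie in 1 region of chromosome 9 in mouse build mm10, and each is annotated with 1 transcript of 2 exons and a coding sequence of 519 bases. Only 12 of the 519 coding positions differed among the copies. Bcl2a1a stood apart from the other copies at 6 of these positions, Bcl2a1b at 5 and Bcl2a1d at 1. The first 150 coding bases hold 7 of the 12 and are shown as the stretch that distinguishes the copies best, read from the GENCODE M21 transcripts with the differing positions in capitals (chr9:88957051-88957200 for Bcl2a1a, chr9:89199360-89199509 for Bcl2a1b and chr9:88731570-88731719 for Bcl2a1d).
Bcl2a1a: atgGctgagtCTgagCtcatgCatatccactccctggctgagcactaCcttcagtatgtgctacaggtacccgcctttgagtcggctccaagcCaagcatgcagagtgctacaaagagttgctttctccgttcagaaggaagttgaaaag
Bcl2a1b: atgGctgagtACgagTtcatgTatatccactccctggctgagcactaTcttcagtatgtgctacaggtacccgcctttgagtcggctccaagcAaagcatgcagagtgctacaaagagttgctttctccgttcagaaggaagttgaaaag
Bcl2a1d: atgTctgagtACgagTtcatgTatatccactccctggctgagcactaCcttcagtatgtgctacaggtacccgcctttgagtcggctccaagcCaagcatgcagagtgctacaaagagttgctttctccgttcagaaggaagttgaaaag

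Between pairs of copies, the coding sequence was identical at 97.9% of positions for Bcl2a1a and Bcl2a1b (8 of 172 residues differ), 98.7% for Bcl2a1a and Bcl2a1d (6 residues) and 98.8% for Bcl2a1b and Bcl2a1d (4 residues). Of the stretches of 31 bases in each whole transcript, 20.4% were found in no other annotated gene for Bcl2a1a, 11.2% for Bcl2a1b and 10.9% for Bcl2a1d. A read that covers none of these stretches can fit more than 1 gene, unless it joins differing positions that lie farther apart. Reads that fit more than 1 gene had to be divided by the authors' quantification, so the sum of the copies is firmer than any single one.

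Mcl1 and the Bcl2a1 genes held most of the pro-survival mRNA. The Bcl2a1 copies together had 136, 118 and 145 TPM in replicates 1, 2 and 3, a mean of 133.0 TPM, above 95.8% of the 9275 protein-coding genes that reached at least 1 TPM in every library. The sum was lowest in replicate 2, also when rescaled (460.1, 291 and 417), while the highest library was replicate 3 in TPM and replicate 1 after rescaling. Within it Bcl2a1b had 70.7, 61.4 and 75.8 TPM, Bcl2a1d had 48.5, 41.0 and 53.3 TPM and Bcl2a1a had 17.2, 15.2 and 15.9 TPM. The order of the copies was the same in each library and their ranges did not overlap. In TPM Bcl2a1b and Bcl2a1d were highest in replicate 3, while after rescaling they were highest in replicate 1 (238, 151.9 and 218 for Bcl2a1b, and 164, 101 and 153 for Bcl2a1d). Bcl2a1b made up 52.1% ± 0.252 of the summed TPM, Bcl2a1d 35.7% ± 0.971 and Bcl2a1a 12.2% ± 1.05 (SD, n = 3). The deposited TPM bounds of the copies did not overlap in any library: in replicate 2, where they came closest to each other, the bounds were 55.4 to 63.1 TPM for Bcl2a1b, 36.5 to 42.8 TPM for Bcl2a1d and 12.6 to 16.8 TPM for Bcl2a1a. The second quantification, made from the reads rather than from an alignment, gave Bcl2a1b 51.8% ± 0.325, Bcl2a1d 35.6% ± 1.33 and Bcl2a1a 12.5% ± 1.65.

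A further copy, Bcl2a1c (chr9:114330135-114330578), whose annotated coding sequence ends after 128 codons, was listed with 6, 0 and 4 counts. Gm29094, an annotated gene whose first exon lies inside the first exon of Bcl2a1b, was listed at 1.67, 0.60 and 1.16 TPM from 66.5, 6.95 and 34.8 counts. Reads in that exon cannot be told from those of Bcl2a1b. Adding either to the sum would change it by less than its spread between libraries.

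Mcl1 (chr3:95658788-95663176, plus strand) was the most abundant of the 10 genes, with 143, 173 and 183 TPM. It ranked 299 of the 9275 expressed protein-coding genes. Replicate 1 was the lowest library in TPM, while after rescaling to protein-coding genes (483, 429 and 526) replicate 2 was. In replicates 1 and 2 the deposited TPM lay just above the upper bound that the same table gives for it, 173 against 170.3 TPM in replicate 2, so these bounds do not enclose every deposited value. Mcl1 held 46.1%, 53.7% and 50.5% of the summed pro-survival TPM in replicates 1, 2 and 3, and the Bcl2a1 copies held 44.0%, 36.4% and 40.1%.

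Mcl1 has 2 annotated transcripts. Mcl1-201 encodes the full protein of 331 codons, and Mcl1-202 has a coding sequence of 285 codons and no annotated untranslated region. The alignment-based tables placed 0, 0 and 9.92 TPM in Mcl1-202. The read-based tables placed 35.5, 0.908 and 14.6 TPM there, or 29.1%, 1.02% and 28.9% of their Mcl1 level. The level of the short form thus depends on the quantification, and in the read-based tables replicate 2 differs from the other libraries. The full form led in every library by either table.

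Bcl2l1 (chr2:152780668-152831728, minus strand) had 29.1, 30.9 and 32.8 TPM. The libraries lay close together in TPM and less so after rescaling (98.3, 76.5 and 94.5). Transcripts encoding the full protein of 233 codons, BCL-XL, were Bcl2l1-201 and Bcl2l1-202. They held 88.0%, 96.8% and 90.7% of the gene's TPM in the alignment-based tables, and 81.4%, 94.3% and 86.9% in the read-based tables. Between them Bcl2l1-201 held 46.1%, 64.2% and 41.0% of the gene's TPM and Bcl2l1-202 held 42.0%, 32.7% and 49.7%, so the leading transcript was Bcl2l1-201 in replicates 1 and 2 and Bcl2l1-202 in replicate 3. In the read-based tables Bcl2l1-201 held 35.9%, 63.3% and 34.7% and Bcl2l1-202 held 45.5%, 31.01% and 52.2%, so there Bcl2l1-202 led in replicate 1 as well. The other 7 annotated transcripts of the gene shared the rest.

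Bcl2 (chr1:106538178-106714274, minus strand), the founding member of the family, was the lowest of the 10 genes. It had 1.48, 1.07 and 1.17 TPM from 884, 195 and 523 expected counts. Its counts are well above the limit that a count of 0 allows, which is 3 counts per library. Of the 9275 expressed protein-coding genes, 0.539% had a lower mean. Bcl2 lies just above the limit of 1 TPM that defines these genes, so this low rank follows largely from the limit. The median over all 22015 nuclear protein-coding genes was 0.187 TPM. Bcl2-201, which encodes 236 codons, held 91.9%, 95.4% and 98.3% of the Bcl2 TPM, and the shorter Bcl2-202 with 199 codons held the rest. The read-based tables gave Bcl2-202 more, 25.6%, 23.3% and 4.40%, from a gene with few counts. Bcl2 made up 0.377% ± 0.0867 of the summed pro-survival TPM and Bcl2l1 made up 9.35% ± 0.256 (SD, n = 3).

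**Figure D1:**
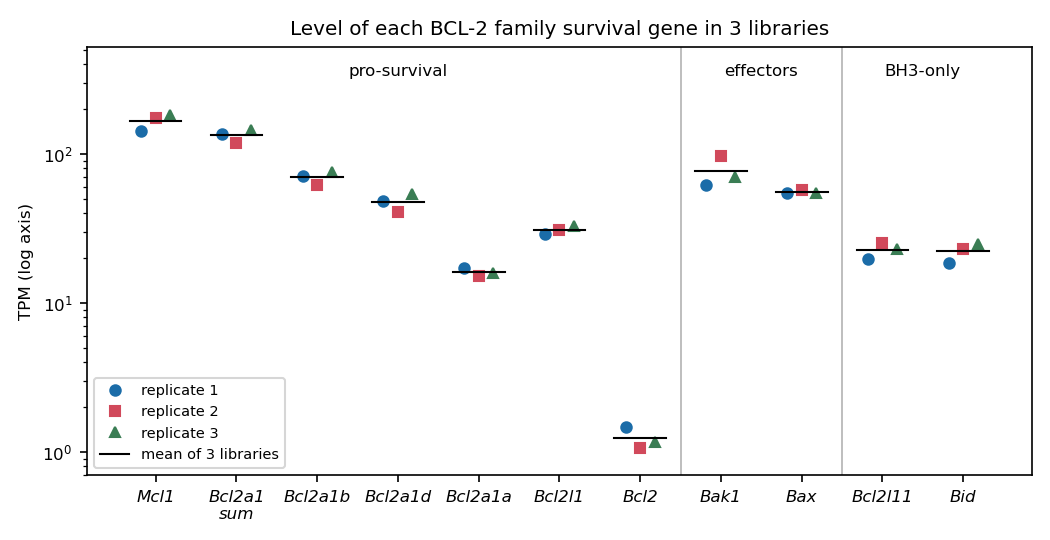
TPM of each gene (log axis) in replicates 1, 2 and 3, with the mean of the 3 libraries as a line, grouped as pro-survival, effector and BH3-only genes. Mcl1 and the summed Bcl2a1 copies lie between 118 and 183 TPM, and Bcl2 lies between 1.07 and 1.48 TPM.

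With all transcripts counted, both effectors were above 50 TPM, and Bak1 was the higher in every library. The protein-coding transcripts of Bak1 alone, described below, had 13.5, 21.8 and 17.8 TPM. They were below Bax in every library by either quantification. Bak1 (chr17:27019810-27029009, minus strand) had 61.7, 96.3 and 70.1 TPM. Replicate 2 was the highest library, also after rescaling (208, 238 and 202). Bax (chr7:45461697-45466898, minus strand) had 54.5, 56.8 and 54.4 TPM, the narrowest spread of the 10 genes in TPM relative to the level, which it did not keep after rescaling (184, 140.4 and 156.6). After rescaling Bcl2l11 had the narrowest. Bax-201, which encodes the full protein of 192 codons, held 85.3%, 85.3% and 86.9% of the Bax TPM. Bax-203 with 172 codons held 6.60%, 10.1% and 5.35%, and Bax-205 with 171 codons held 7.06%, 4.58% and 6.82%. The last exons of the annotated gene Gm45808 lie over Bax exons on the same strand, and Gm45808 had no counts.

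Most of the Bak1 level stood in transcripts annotated as targets of nonsense-mediated decay. Among the other 9 genes Bid alone has such a transcript, listed at 0, 0 and 1.41% of its TPM in the alignment-based tables. The 4 annotated transcripts of Bak1 are 2 protein-coding ones, Bak1-202 and Bak1-203, and 2 decay targets, Bak1-201 and Bak1-204. Bak1-202 has the full 209 codons. Bak1-203 has 146 codons, lacks an exon of 181 bases and ends in a shorter last exon that lies inside that of the other transcripts. Bak1-201 contains an extra exon of 20 bases (chr17:27021663-27021682), and its reading frame ends after 151 codons. An exon of this kind is known from mouse neurons, where it gives the variant N-BAK. Bak1-204 lacks the first 5 bases of an exon (chr17:27022873-27022877), and its frame ends after 79 codons. The bases that set these transcripts apart are shown with 30 bases on either side, from the GENCODE M21 transcripts, with the inserted or missing bases in capitals. The first pair spans chr17:27021318-27022468 and the second pair chr17:27022843-27025822, all on the minus strand, with introns spliced out.
Bak1-201, with the exon: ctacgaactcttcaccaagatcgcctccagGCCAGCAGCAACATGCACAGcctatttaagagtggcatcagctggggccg
Bak1-202, without it: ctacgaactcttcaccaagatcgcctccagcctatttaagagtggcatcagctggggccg
Bak1-202, with the bases: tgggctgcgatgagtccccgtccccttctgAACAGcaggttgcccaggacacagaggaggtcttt
Bak1-204, without them: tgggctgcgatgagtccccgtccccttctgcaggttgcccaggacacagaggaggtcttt

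The nonsense-mediated decay transcripts held 78.2%, 77.4% and 74.6% of the Bak1 TPM in replicates 1, 2 and 3. Bak1-201 held 43.4%, 25.8% and 35.0% and Bak1-204 held 34.8%, 51.6% and 39.6%. The full-length Bak1-202 held 6.44%, 2.87% and 13.5%, or 3.97, 2.76 and 9.49 TPM. The read-based tables gave the decay transcripts 66.3%, 81.6% and 66.6% and Bak1-202 11.1%, 0.621% and 18.4%. Replicate 2 had the lowest share of Bak1-202 and the highest share of Bak1-204 in either quantification. Among the 2886 expressed protein-coding genes with at least 1 such transcript, the median share was 2.55%. Counting Bak1 itself, 20 genes (0.693%) had a mean share as high as that of Bak1 or higher. In the read-based tables the median was 3.99% and 31 genes (1.07%), Bak1 included, reached the Bak1 share of 71.5%.

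Except for Bak1-202, these shares rest on few bases. Of the stretches of 31 bases in each transcript, 47 of 1944 in Bak1-201 and 29 of 1928 in Bak1-204 are in no other Bak1 transcript. For the protein-coding transcripts these were 24 of 872 in Bak1-203 and 317 of 2357 in Bak1-202. The transcripts also differ in the first exon, which has 168 bases in Bak1-201, 177 in Bak1-204, 284 in Bak1-203 and 599 in Bak1-202. The start of Bak1-202 lies 315 bases upstream of the next annotated start, that of Bak1-203. Every splice junction of Bak1-202 also occurs in another Bak1 transcript, so its own stretches lie toward its 5′ and 3′ ends. Bak1-202 is the only annotated transcript with all 209 codons, so the annotation holds no full-length form with a short first exon. The share of Bak1-202 therefore need not be that of all full-length Bak1 mRNA. The deposited tables hold no reads over single splice junctions. Inclusion of the 20 bases or loss of the 5 bases was therefore not measured directly, and how far the first exon decides the shares was not tested. The annotated gene Ggnbp1, which overlaps Bak1 exons on the opposite strand, was listed at 0.33, 0.080 and 0.25 TPM.

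**Figure D2:**
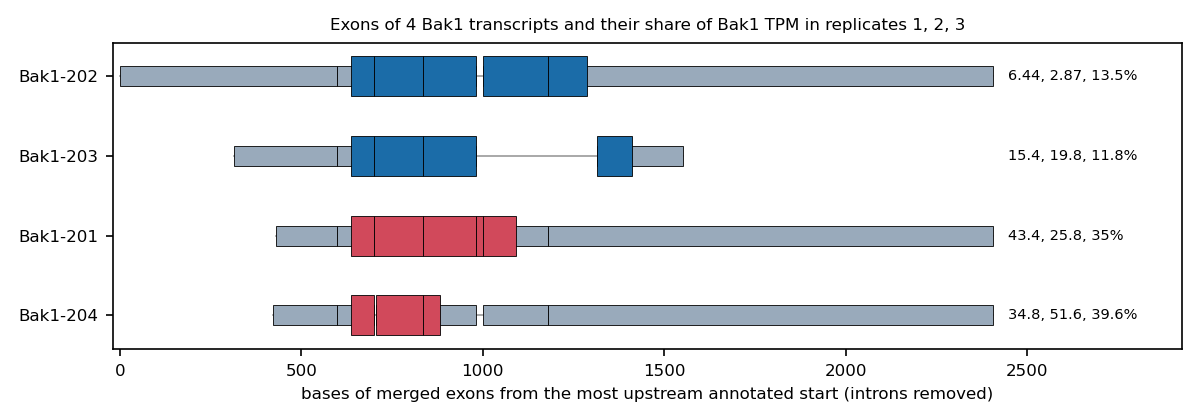
Exons of the 4 Bak1 transcripts along their merged exons in bases from the most upstream start, introns removed, with coding parts as tall boxes (blue for protein-coding, red for nonsense-mediated decay transcripts). The numbers are the share of Bak1 TPM in replicates 1, 2 and 3, and Bak1-201 and Bak1-204 together hold 74.6% to 78.2%.

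The BH3-only genes were lower than the effectors when all transcripts of a gene were counted. Both were above the protein-coding transcripts of Bak1 alone (13.5, 21.8 and 17.8 TPM) in every library. In the read-based tables, where those transcripts had 14.5, 9.25 and 5.62 TPM, this held in replicate 2 only. Bcl2l11 (chr2:128126038-128162547, plus strand), which encodes BIM, had 19.7, 25.1 and 22.8 TPM. Bcl2l11-205, with the 196 codons of the longest form BIM-EL, held 71.4%, 93.1% and 78.8% of it. Bcl2l11-203, with the 140 codons of BIM-L, held 5.80%, 2.59% and 8.32%, and the transcripts with the 110 codons of BIM-S held 6.31%, 0 and 9.72%. Bcl2l11-202, with 91 codons, held 8.34%, 2.28% and 1.62%. The 3 transcripts without a coding sequence held 8.19%, 2.04% and 1.53%, and 13.4%, 1.96% and 2.89% in the read-based tables. The read-based tables gave BIM-EL 58.7%, 79.5% and 72.4%, BIM-L 10.8%, 2.91% and 11.4%, and BIM-S 9.64%, 13.6% and 11.8%. BIM-EL led in every library by either table, while BIM-S in replicate 2 was listed at 0 in one table and at 13.6% in the other.

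Bid (chr6:120891930-120916853, minus strand), whose protein is activated by caspase 8, had 18.4, 23.1 and 24.9 TPM. In TPM replicate 1 was the lowest library for Bid as for Bcl2l11, while after rescaling replicate 2 was the lowest for both (62.1, 57.1 and 71.5 for Bid, and 66.3, 62.0 and 65.7 for Bcl2l11). Bid-201, with 195 codons, held 98.0%, 100% and 97.5% of its TPM. The annotated 3′ end of Bcl2l13 overlaps the Bid transcript Bid-204 on the opposite strand, and whether strand was used in counting is not given in the sources used here.

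**Figure D3:**
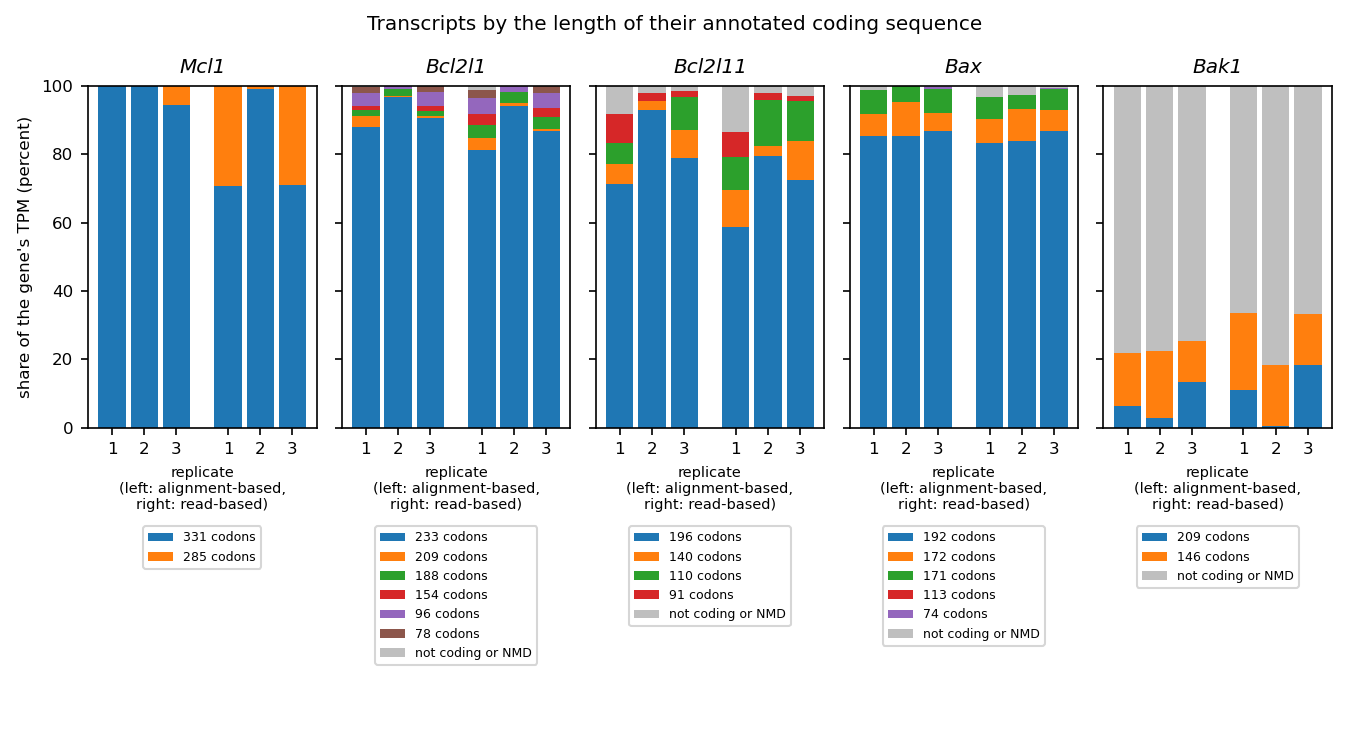
Share of each gene's TPM in transcripts grouped by the number of annotated codons, in replicates 1, 2 and 3 from the alignment-based tables (left) and the read-based tables (right). The full-length class leads for Mcl1, Bcl2l1, Bcl2l11 and Bax in all 6 bars, while for Bak1 the grey class of non-coding and nonsense-mediated decay (NMD) transcripts holds 66.3% to 81.6%.

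By mean TPM the order of the genes, with the Bcl2a1 copies summed, was Mcl1, Bcl2a1, Bak1, Bax, Bcl2l1, Bcl2l11, Bid and Bcl2. Neighbours in this order were compared by their difference in log2(TPM + 1) within each library, which understates the differences of low genes. An exact sign-flip test over 3 libraries, two-sided, cannot give a p below 0.25, so no pair could pass a threshold of 0.05. A pair is described as separated beyond the spread where the difference had 1 sign in all 3 libraries and its mean exceeded 2 SD. The order came from the same 3 libraries, so the direction of each mean difference was largely set beforehand. The spread between libraries also leaves out any error that a gene carries in every library.

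Of the 7 pairs, 3 were separated in this sense. Bid exceeded Bcl2 by 3.36 ± 0.341 (10.3-fold on this scale), Bax exceeded Bcl2l1 by 0.82 ± 0.0912 (1.76-fold) and Bcl2l1 exceeded Bcl2l11 by 0.45 ± 0.136 (1.36-fold). The separation of Bcl2l1 and Bcl2l11 was lost in the read-based tables, where the differences were 0.42, 0.09 and 0.43 (0.31 ± 0.195). Mcl1 was higher than Bcl2a1 in 3 of 3 libraries, by 0.07, 0.56 and 0.33, but the mean of 0.32 was less than 2 SD (0.244 each). In the read-based tables this pair was separated, with differences of 0.41, 0.54 and 0.63 (0.53 ± 0.112). Bcl2a1 was higher than Bak1 in 3 of 3 libraries, by 1.13, 0.29 and 1.04, and Bak1 higher than Bax by 0.18, 0.75 and 0.36, with the spread again too wide. Without replicate 2 the difference of Bcl2a1 to Bak1 was 1.08 ± 0.0663 over 2 libraries and met the rule. The exact sign-flip p was 0.25 for each of these pairs. Bcl2l11 and Bid changed places between libraries, with differences of 0.09, 0.11 and -0.12 and an exact sign-flip p of 1.

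Summed by role, pro-survival genes had 310.0, 323 and 362 TPM, the effectors Bax and Bak1 had 116, 153 and 125 TPM, and the BH3-only genes Bcl2l11 and Bid had 38.0, 48.2 and 47.7 TPM. After rescaling the sums were 1046, 799 and 1041 for pro-survival genes, 392, 378 and 358 for the effectors, and 128, 119 and 137 for the BH3-only genes, so replicate 2 was the lowest for pro-survival and BH3-only genes and replicate 1 the highest for pro-survival genes and effectors. The ratios between roles do not depend on this scaling. The log2 ratio of pro-survival to effector TPM was 1.42, 1.08 and 1.54, a mean of 1.34 ± 0.239 (SD, n = 3). Pro-survival mRNA was the higher in 3 of 3 libraries, least so in replicate 2, where Bak1 was highest and Bcl2a1 lowest. Without the Bcl2a1 copies the ratio was 0.60 ± 0.189. With Bak1 counted from its protein-coding transcripts alone, which had 13.5, 21.8 and 17.8 TPM, it was 2.18 ± 0.143. That value carries the limits of the Bak1 transcript shares given above. The log2 ratio of pro-survival to BH3-only TPM was 2.90 ± 0.142. The sums hold only the genes described here. The 6 other BH3-only genes listed below summed to 29.72, 30.34 and 35.35 TPM in replicates 1, 2 and 3. The 3 other pro-survival genes summed to 6.79, 5.29 and 5.77 TPM. Neither set entered, so the ratios between roles depend on the choice of genes. These are ratios of mRNA and not of protein.

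The libraries differed most in Bcl2a1 and Bcl2 when counts were divided by the total over nuclear protein-coding genes, per 1000000 (protein-coding CPM). In TPM the highest library exceeded the lowest most for Bak1 (1.56-fold), against 1.38-fold for Bcl2 and 1.23-fold for the Bcl2a1 sum. The Bcl2a1 sum had 96.8 protein-coding CPM in replicate 2, against 157 in replicate 1 and 147 in replicate 3. The log2 ratio of replicate 2 to the mean of the other libraries was -0.65 for the Bcl2a1 sum and -0.52, -0.65 and -0.70 for Bcl2a1a, Bcl2a1b and Bcl2a1d. Bcl2 had 9.96 protein-coding CPM in replicate 2, against 18.4 in replicate 1 and 12.9 in replicate 3, a log2 ratio of -0.65 for replicate 2. Among the 7155 protein-coding genes with at least the mean level of Bcl2, 2.46% had a lower ratio in replicate 2 than the Bcl2a1 sum and 2.49% a lower one than Bcl2. Replicate 2 was also the library with the lowest depth and the largest share of protein-coding TPM, and the part of these in the result was not tested.

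In protein-coding CPM the other genes moved less. In replicate 2 the ratios were -0.29 for Bcl2l1, -0.30 for Bax, -0.22 for Mcl1 and -0.23 for Bid, all inside the range from the 5th to the 95th percentile of the 7155 genes (-0.50 to 0.33), and 0.10 for Bak1 and 0.09 for Bcl2l11. In replicate 1, Bcl2 stood highest at 0.68, above 98.7% of those genes. In replicate 3, Bid stood highest at 0.28, above 91.1% of them. With the Bcl2a1 copies summed, 6 of the 8 genes were lower in replicate 2 than in the other libraries, at a median of -0.26, where 50.7% of the 7155 genes were lower. The spread over all 3 libraries was estimated from the counts with edgeR as the biological coefficient of variation. This coefficient is drawn toward genes of like level and is read here by rank, with values given only for leaving out replicate 2. The rank among protein-coding genes of like count was the 94.2nd percentile for Bcl2a1d, the 92.4th for Bcl2a1b, the 87.1st for Bcl2, the 74.0th for Bid and the 71.2nd for Bcl2a1a. It was between the 38.7th and the 52.4th percentile for Bak1, Bcl2l11, Mcl1, Bax and Bcl2l1. The Bcl2a1 copies were ranked singly, and no coefficient was estimated for their sum. Without replicate 2 the coefficient went from 0.190 to 0.134 for Bcl2a1d and from 0.179 to 0.130 for Bcl2a1b. For Bcl2a1a it went from 0.191 to 0.167, while for Mcl1, Bcl2l11, Bak1 and Bid it rose. Ranks were not recomputed without replicate 2.

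**Figure D4:**
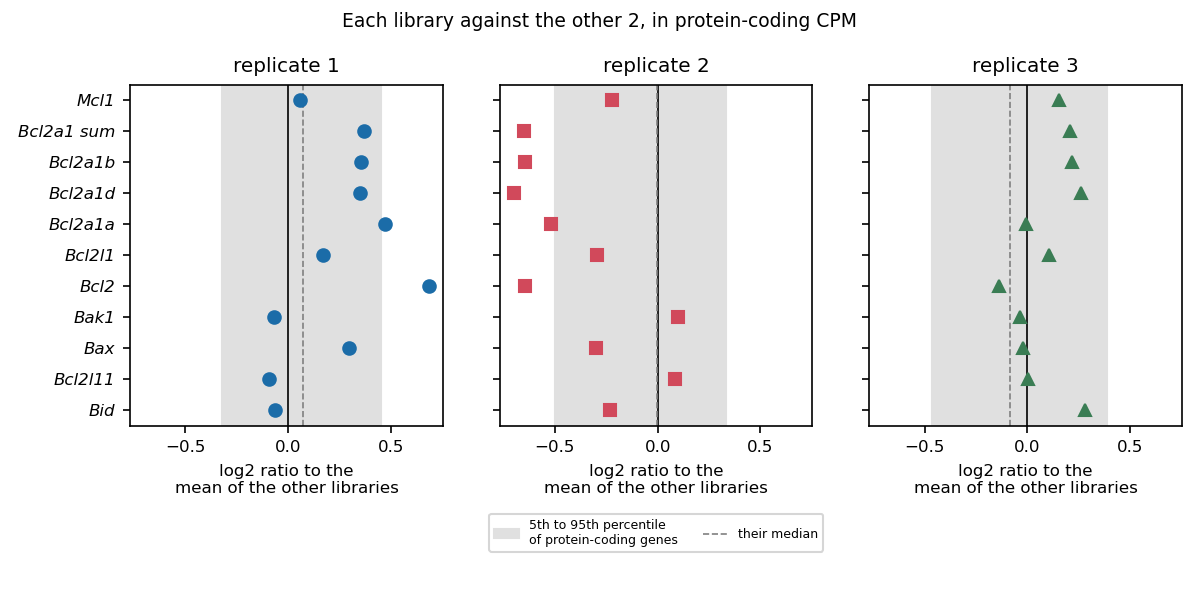
Each gene's log2 ratio of protein-coding CPM between a library and the mean of the other libraries, with the 5th to 95th percentile of 7155 protein-coding genes in grey. In replicate 2 the Bcl2a1 genes and Bcl2 lie between -0.70 and -0.52, left of the grey range.

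Of 17 other BCL-2 family and BCL-2-like genes, 9 reached at least 1 TPM in every library and 7 were below it in every library. By the same measure 42.1% of all protein-coding genes reached 1 TPM in every library. Among the other pro-survival genes, Bcl2l2, which encodes BCL-W, had 6.49, 5.29 and 5.52 TPM, and Bcl2l10 had no counts. Bok, the third effector, had 1 count in replicate 1 and none in the other libraries.

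Of the 6 other BH3-only genes, 3 reached 1 TPM in every library, 2 were below it in every library and Bmf lay between. Bad, whose protein is held inactive by phosphorylation, had 12.5, 14.6 and 13.3 TPM. Pmaip1 (NOXA), which binds MCL-1 and A1, had 10.5, 10.6 and 13.0 TPM, and Bbc3 (PUMA), a target of p53, had 5.97, 3.63 and 8.16 TPM. Each was below Bcl2l11 and Bid in every library. Bmf had 0.720, 1.47 and 0.930 TPM and so reached 1 TPM in 1 library. Bik had 1 count in replicate 1, and Hrk, known from neurons, had no counts, which allows up to 0.0626, 0.153 and 0.0740 protein-coding CPM in replicates 1, 2 and 3 for counting error only.

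Among BCL-2-like and BH3-like genes, Becn1 (Beclin 1, an autophagy protein bound by BCL-2) had the highest mean, with 34.9, 45.8 and 41.2 TPM, though Bnip3l was above it in replicate 2. Bnip3l (NIX, a receptor for mitophagy) had 22.8, 48.3 and 22.1 TPM, highest in replicate 2, but 76.5, 66.2 and 58.3 protein-coding CPM, highest in replicate 1. Its relative Bnip3 had 5.71, 8.32 and 5.12 TPM, Bcl2l13 had 7.21, 9.55 and 8.54 TPM and Bcl2l12 had 4.14, 5.23 and 3.90 TPM. Bcl2l14 had at most 0.550 TPM in any library, and Bcl2l15 was listed at 0, 0 and 0.0300 TPM.

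**Figure D5:**
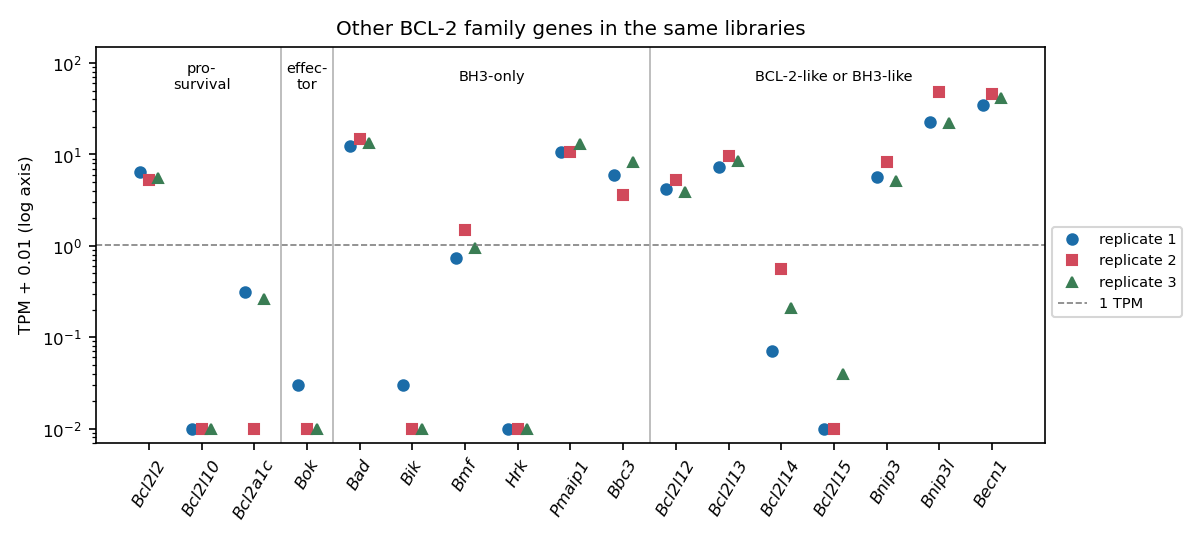
TPM + 0.01 (log axis) of the 17 other BCL-2 family and BCL-2-like genes in replicates 1, 2 and 3, with 1 TPM as a dashed line. The 9 genes above the line in every library include Becn1 and Bnip3l, and 7 genes lie below it in every library.

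Genes that act around the family were expressed almost throughout. Of 33, 32 reached at least 1 TPM in every library, against 42.1% of all protein-coding genes. Endog, a mitochondrial nuclease named after its values were seen because it is the exception, had 0.930, 1.02 and 1.03 TPM. The median over the 10 genes described here was 39.3 ± 3.59 TPM, against 18.0 ± 3.31 TPM over these 33 and 0.187 ± 0.0321 TPM over all nuclear protein-coding genes (SD, n = 3). Of the 22015 nuclear protein-coding genes, 7291 had no counts. The members and gene lists were chosen with earlier results of these data known, so these contrasts were partly set by the choice. At the mitochondrion, the channels Vdac2 (84.9 ± 5.87 TPM), Vdac3 (58.5 ± 4.31 TPM) and Vdac1 (45.8 ± 3.87 TPM) were highest, followed by Cycs, cytochrome c (23.5 ± 6.35 TPM). VDAC2 is known to hold BAK at the membrane.

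Of the 14 genes that regulate family members, the highest were Ddit3 (CHOP, 127 ± 36.2 TPM), a transcription factor of the stress response that induces Bcl2l11, Ywhaz (113 ± 11.7 TPM), a 14-3-3 protein that binds phosphorylated BAD, Bag1 (69.2 ± 8.94 TPM), whose protein binds BCL-2, and Mdm2 (37.8 ± 1.70 TPM), which marks p53 for degradation. Of the caspases and their inhibitors, Cflar (c-FLIP, 104 ± 17.5 TPM), which restrains caspase 8, was the highest, followed by Casp8 (45.1 ± 14.3 TPM) and Birc3 (c-IAP2, 38.1 ± 1.28 TPM). Casp8 exceeded Bid, its substrate, in 3 of 3 libraries.

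The genes whose levels were most like those of 3 members over the 3 libraries were found by the Euclidean distance of log2 levels, after TPM were rescaled to nuclear protein-coding genes. For the Bcl2a1 sum they were Hint1 (distance 0.0765), Rbm3 (0.135) and Psmb6 (0.167). For Mcl1 they were Rps4x (0.0949), Slc25a5 (0.132) and Rpl24 (0.171), the ribosomal protein genes among them having processed copies that can share reads. For Bcl2 they were Txlnb (0.0946), Tmem216 (0.106) and Spata7 (0.151). With 3 libraries of 1 group this describes level only.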

How the data were processed

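Each library had 3 deposited tables. Per the deposited description files, a gene table and a transcript table derive from reads aligned to transcripts, and another transcript table from the reads themselves, on mouse build mm10 with GENCODE M21. The programs and strand setting: not given in the sources used here. The authors deposited expected counts (not normalized) and, in the read-based tables, estimated counts. TPM and FPKM were scaled within each library by the authors. The TPM bounds are a score of the authors' own model, per the file headers, and the share of a gene's TPM in each transcript is deposited as a percent and was recomputed here from the TPM. Levels and bounds are the authors'. Shares, sums, ratios and differences were computed here with Python 3.11.15, numpy 2.4.6 and pandas 2.3.3.

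The members and gene lists were chosen with earlier results of these data known. Of the lists, every gene of the family lists is named, and of the pathway lists the 4 with the highest mean TPM and any gene under 1 TPM in every library, except 1 gene that is not reported here. The rule also covered the marker lists, which are given as counts and sums with a few genes named after their values were seen. Likeness was measured with a pseudocount of 1 on the log2 scale, and 3 genes per member are named. Library ratios used an offset of 0.1 CPM. The coefficient of variation came from edgeR 4.0.16 in R 4.3.3, with an intercept only, TMM factors and the package's filter, on expected counts rounded to whole numbers (12361 genes), and was tested on simulated data. DESeq2 1.42.0 was an alternative. Coding sequences were compared with Biopython 1.88. No test across genes was made, because there is 1 group.

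The limit allowed by a count of 0 (3 counts) was 0.0540 CPM of all counts in replicate 1, 0.141 in replicate 2 and 0.0657 in replicate 3, for counting error only. The annotation held 55536 of the 81881 gene table identifiers, and the others entered no gene value.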

Additional observations from a re-analysis of the deposited data

How the results depend on the processing

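No paired analysis was possible because there is 1 group. The alternatives were the read-based tables, TPM rescaled to nuclear protein-coding genes, FPKM, other pseudocounts, offsets and limits, other normalizations and leaving out each library. The read-based TPM rescaled in the same way and Bak1 from its protein-coding transcripts alone were added after seeing the data. The log2 ratio of pro-survival to effector TPM was 0.60 without the Bcl2a1 copies, 2.18 with Bak1 from its protein-coding transcripts and 1.25 to 1.48 with 1 library left out. The difference between Bid and Bcl2 was 2.61 in the read-based tables, 3.81 with rescaled TPM and 4.05 with a pseudocount of 0.1, since Bcl2 is near the pseudocount. With the rescaled read-based tables Bax exceeded Bcl2l1 by 0.91 and Bcl2l11 exceeded Bid by 0.16, while Bcl2l11 minus Bid ranged from -0.0133 to 0.10 with 1 library left out (-0.0133 without replicate 2, -0.00199 without replicate 1). By the 2 SD rule, leaving out 1 library separated Mcl1 from Bcl2a1 (without replicate 1), Bcl2a1 from Bak1 (without replicate 2), Bak1 from Bax (without replicate 1 or 2) and Bcl2l11 from Bid (without replicate 3), each over 2 libraries. Bcl2a1b held 51.8% in the read-based tables and 50.7% of the expected counts, and Bcl2a1d held 37.4% of the expected counts. The decay transcripts held 71.5% of Bak1 in the read-based tables and 83.3% of the expected counts. The cause of these shifts was not tested.

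Over the members, the median log2 ratio of replicate 1, 0.12, became -0.0012 with TMM and -0.0405 with DESeq2 size factors. Single values near 0 also changed sign. In replicate 1 these were Mcl1 (-0.0574 with TMM, -0.10 with DESeq2 size factors) and Bcl2l11 (0.0547 with rescaled TPM). In replicate 2 it was Bcl2l11 (-0.0903 with rescaled TPM). In replicate 3 they were Bcl2 (0.0046 with DESeq2 size factors), Bax (0.0813 and 0.11) and Bak1 (0.0600 and 0.0893, each with TMM and DESeq2 size factors). The count of other family genes with at least 1 TPM was 8 to 10 and that of surrounding genes 31 to 33 under the alternatives. Read-based TPM of replicate 3 stand on a lower scale, with 7.95% of TPM in protein-coding genes, so levels are not compared between tables.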
